A study of Homo sapiens with 12 samples.

Results

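ETV1, ETV4 and ETV5 are the PEA3 group of ETS transcription factors, and their transcript levels are described here in a melanoma line treated with inhibitors of the MAPK pathway, of histone deacetylases, or of both. They are 3 of the 14582 genes that could be named and tested. Each was represented by 1 probe set (17055354 for ETV1, 16845410 for ETV4 and 16962380 for ETV5), which is therefore the brightest as well. The cells were SK-MEL-2, an established human melanoma line kept in RPMI with serum, and every group was harvested after 24 hours. The DMSO group received vehicle. The DT group received dabrafenib, a RAF kinase inhibitor, at 100 nM together with trametinib, an inhibitor of MEK1 and MEK2, at 10 nM. The E group received entinostat, an inhibitor of class I histone deacetylases, at 1 µM, and the DTE group received all 3 agents at these doses. Each of the 4 groups held 3 Affymetrix arrays of total RNA, 12 in all, from a single cell line. The replicates are biological by their titles but technical by the description of the series. The p-values therefore speak of array-to-array spread, which may be technical, and the small number of arrays limits the precision.

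PEA3 factors bind DNA through the ETS domain, at sites with a GGAA core, and activate genes for proliferation, migration and matrix breakdown. Their transcription is a well-known output of ERK signalling. In the absence of that signal the repressor Capicua (CIC) occupies octamer sites near ETV1, ETV4, ETV5 and genes for feedback inhibitors of the pathway, and ERK activity relieves this repression. ERK also phosphorylates the PEA3 proteins themselves, and the ubiquitin ligase COP1 with its adaptor DET1 marks them for degradation. In melanoma, ETV1 has been linked to the lineage gene MITF.

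Values are deposited intensities, on a linear scale, and differences are on the log2 scale, with their standard error (SE). A gene is called higher or lower where the limma p, adjusted by Benjamini-Hochberg over all 14582 genes, is under 0.05. Because the arrays differed in level, differences of the PEA3 factors between groups are followed by their values after quantile normalization. This step gives all arrays the same distribution. For other genes such values are given for part of the differences. The median intensity over the named genes was 22.9 to 25.1 on the DTE arrays and 31.4 to 51.6 on the other 9 arrays. The median gene differed by -0.12 in DT and by 0.14 in E from DMSO, by -0.54 in DTE from DMSO, by -0.41 in DTE from DT and by -0.82 in DTE from E. In bulk RNA, fewer cells and less RNA per cell cannot be told apart. Whether the array levels came from the cells or from a rescaling of the values before deposit was not tested. The part of the array level in each result was not tested beyond the values after quantile normalization given beside it. All 11 measured melanocyte markers of 14 listed, such as SOX10, MITF and TYR, were above background in all groups, and their summed intensity ranged from 6240 to 7220 over the DMSO arrays, 5550 to 6270 over DT, 4970 to 7040 over E and 2800 to 3040 over DTE. The marker S100B, at 2540 in DMSO and 2620 in DT, made up a large part of the sum, which hides unlike changes of single markers. MITF stood at 519 in DMSO and 122 in DT, TYR at 864 and 516, and SOX10 at 581 and 585. Of the markers of other cell types, DCN (fibroblasts) and KRT5 (epithelium) were at background in all groups, while both measured leukocyte genes, 3 of 5 epithelial genes and both endothelial genes were above it in all groups. The endothelial receptor KDR stood at 257 in E against 38.4 in DMSO. The background of an array, taken as the 95th percentile of its dimmest 25% of genes, was 11.1 to 16.2, and no value of a PEA3 factor was less than 2.0 times that of its own array.

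Treatment with dabrafenib and trametinib lowered all 3 PEA3 factors, ETV4 by the largest fold of the group, ETV5 less and ETV1 least. Values are given in the order of replicates 1, 2 and 3. ETV4 read 280, 278 and 234 on the DMSO arrays and 33.6, 26.4 and 31.9 on the DT arrays. The lowest DMSO array was thus far above the highest DT array. ETV4 fell by 3.11 ± 0.15 (SE) on the log2 scale, 8.63-fold (adjusted p = 6.59e-13 by limma), with -2.72 after quantile normalization (adjusted p = 1.25e-09 by limma). This decrease was number 3 in order of size among all genes on both scales, and it left ETV4 at 11.6% of its DMSO level (15.1% after quantile normalization).

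ETV5 read 280, 261 and 206 in DMSO and 67.8, 54.3 and 66.2 in DT, again with no overlap. It fell by 1.98 ± 0.15 (SE), 3.95-fold (adjusted p = 1.32e-09 by limma), with -1.60 after quantile normalization. ETV5 thereby stood at 25.3% of its DMSO level (32.9% after quantile normalization), and its decrease was number 31 in order of size among all genes (35 after quantile normalization).

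ETV1 read 213, 199 and 171 in DMSO and 94, 81.9 and 96.9 in DT, and these groups did not overlap either. It fell by 1.10 ± 0.15 (SE), 2.14-fold (adjusted p = 3.62e-06 by limma), with -0.71 after quantile normalization (adjusted p = 1.47e-05 by limma). Of its DMSO level 46.8% remained (61.1% after quantile normalization), and its decrease was number 465 in size (572 after quantile normalization). Over all genes, 23.1% were called lower and 4.72% higher in DT, or 14.6% and 15.1% after quantile normalization, and the DT and DMSO arrays of 37.8% of genes did not overlap. All 3 factors were called lower under each of the 21 alternative settings tried.

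**Figure D1:**
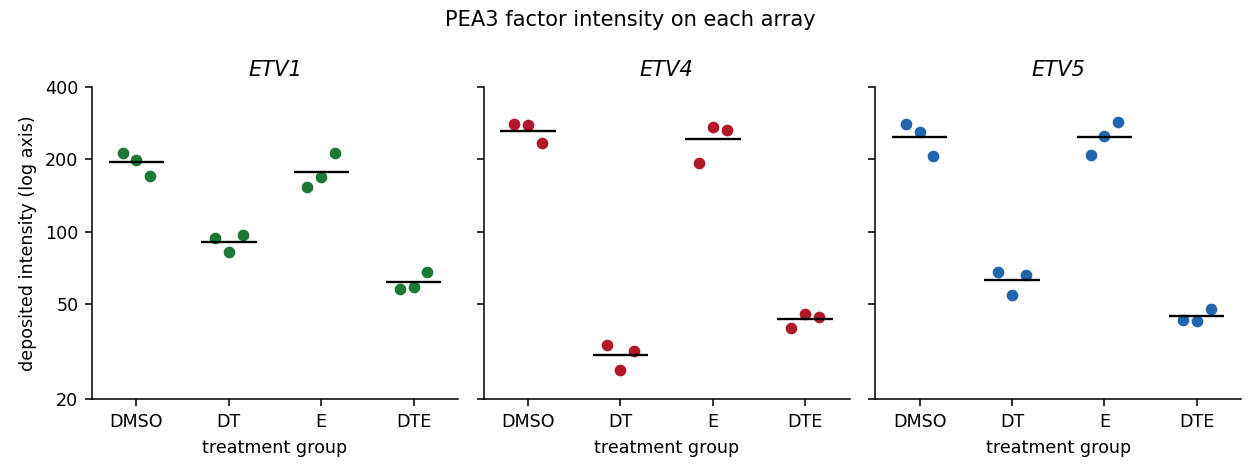
Deposited intensity (log axis) of ETV1, ETV4 and ETV5 on each of the 12 arrays, by treatment; points are arrays and horizontal lines the group means. The DT and DTE arrays of all 3 genes lie below every DMSO and E array, and the DTE arrays lie above the DT arrays for ETV4 and below them for ETV1 and ETV5.

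**Figure D2:**
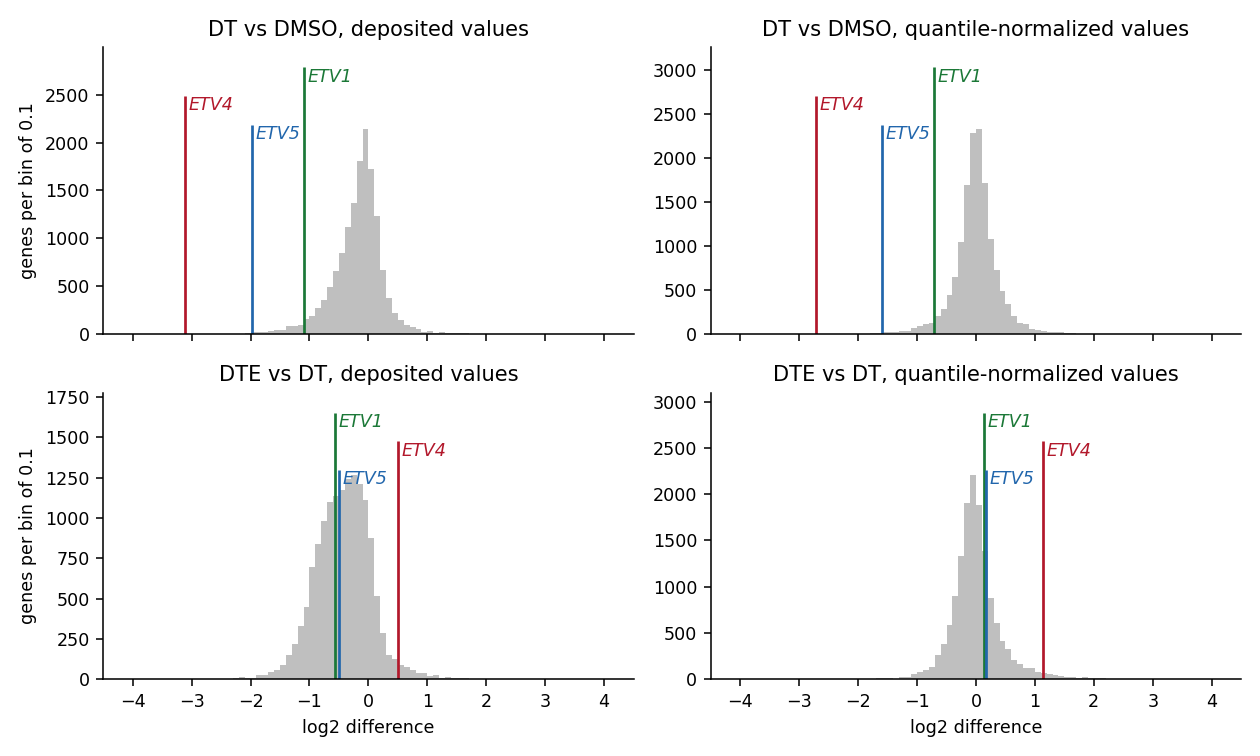
Number of genes, of 14582, per bin of 0.1 in log2 difference, for DT vs DMSO (top) and DTE vs DT (bottom), in deposited (left) and quantile-normalized values (right); coloured lines mark ETV1, ETV4 and ETV5. In deposited DT vs DMSO values ETV4 lies at -3.11 and ETV5 at -1.98, in the far lower tail, while in DTE vs DT ETV4 lies at 0.50 against a median gene of -0.41.

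The promoter of ETV1 is shown because it carries a sequence of the kind that CIC recognises. Of the 3 PEA3 factors, 1 was matched in the RefSeq promoter table (GRCh38.p14), with 6 windows for alternative starts of ETV1, each reaching from 250 bases before a start to 50 after it. The 4 octamers TGAATGAA, TGAATGGA, TCAATGAA and TCAATGGA, textbook CIC sites, were searched on both strands. One of the 6 windows, that of the start just below the stretch chr7:13991426-13991675 on the minus strand, held TGAATGGA, beginning 125 bases before the start. The 250 bases before that start follow, with the octamer in capitals.
ETV1: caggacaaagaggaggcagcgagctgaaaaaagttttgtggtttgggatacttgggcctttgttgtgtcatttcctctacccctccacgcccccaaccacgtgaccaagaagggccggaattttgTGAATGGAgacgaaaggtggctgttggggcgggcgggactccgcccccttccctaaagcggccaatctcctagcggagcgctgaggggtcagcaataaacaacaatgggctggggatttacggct
Over all 35116 windows in the table, 1.03% held TGAATGGA and 3.77% held at least 1 of the 4 octamers, and 4.62% of the 27305 genes had such a window. A match is a description of these letters and no evidence of binding.

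With entinostat alone none of the 3 factors was called in deposited values, and their mean levels were 90.9% (ETV1), 91.8% (ETV4) and 99.9% (ETV5) of DMSO. ETV4 read 194, 273 and 266 on the E arrays, with replicates 2 and 3 inside the DMSO range and replicate 1 below it. The difference was -0.12 ± 0.15 (SE), with a 95% interval from -0.44 to 0.19 (adjusted p = 0.605 by limma), and -0.21 after quantile normalization (adjusted p = 0.114 by limma). ETV5 read 208, 251 and 287 and differed by 0.00 ± 0.15 (SE), with an interval from -0.32 to 0.31 (adjusted p = 0.996 by limma), or by -0.08 after quantile normalization. The E arrays of both genes overlapped those of DMSO in deposited values. After quantile normalization those of ETV5 still did and those of ETV4 did not.

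ETV1 read 153, 169 and 212 in E, a spread that also overlapped DMSO. It differed by -0.14 ± 0.15 (SE), with an interval from -0.44 to 0.17 (adjusted p = 0.547 by limma). After quantile normalization the difference of -0.22 passed the threshold (adjusted p = 0.0481 by limma), and the arrays did not overlap. With each array centred on its median, ETV1, ETV4 and ETV5 differed from DMSO by -0.42, -0.41 and -0.29 and were called lower, so the calls in this comparison depend on the scale. Without E replicate 1 the uncalled differences of ETV4 and ETV5 turned to 0.04 and 0.12, and that of ETV5 turned to 0.09 and 0.04 without DMSO replicates 1 and 2 in turn. Over all genes, 20.8% were called higher and 4.81% lower in E, or 15.1% and 16.3% after quantile normalization, and the arrays of 32.8% of genes did not overlap. Of a list of 6 genes known to respond to entinostat, all 3 that were measured rose, the chaperone CLU by 1.75, the synaptotagmin SYT11 by 1.15 and the metallothionein MT1X by 0.99, and each also after quantile normalization. A p above the threshold does not show that the PEA3 factors did not respond, and a change within the intervals above remains possible.

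With all 3 agents the PEA3 factors were again below DMSO. ETV4 read 39.7, 45.5 and 44.2 on the DTE arrays and fell by 2.61 ± 0.15 (SE) against DMSO (adjusted p = 3.81e-12 by limma), with -1.58 after quantile normalization. ETV5 read 42.9, 42.4 and 47.8 and fell by 2.48 ± 0.15 (SE) (adjusted p = 8.48e-12 by limma), with -1.43. ETV1 read 57.5, 59 and 67.9 and fell by 1.66 ± 0.15 (SE) (adjusted p = 1.26e-09 by limma), with -0.57. No DTE array of the 3 genes reached its DMSO range. The remaining level was 16.4% of DMSO for ETV4, 17.9% for ETV5 and 31.6% for ETV1, and 33.4%, 37% and 67.2% after quantile normalization. In this comparison 60.8% of all genes were called lower and 4.26% higher (22.4% and 20.5% after quantile normalization), and 69.1% had arrays that did not overlap.

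Against entinostat alone, adding dabrafenib and trametinib lowered each factor as well. ETV4 fell by 2.49 ± 0.15 (SE) (adjusted p = 2.22e-11 by limma), ETV5 by 2.48 ± 0.15 (SE) (adjusted p = 2.34e-11 by limma) and ETV1 by 1.52 ± 0.15 (SE) (adjusted p = 6.44e-09 by limma). After quantile normalization the differences were -1.37, -1.35 and -0.35, all called. The arrays of these groups did not overlap for the 3 genes, as was so for 79.6% of all genes, of which 78.5% were called lower and 0.247% higher (9.99% and 10.1% after quantile normalization). Both comparisons of the DTE arrays held under each of the 21 alternative settings for all 3 factors, and they share the DTE arrays.

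Adding entinostat to dabrafenib and trametinib separated ETV4 from the other two. ETV4 was higher with all 3 agents than with DT, at 39.7 to 45.5 against 26.4 to 33.6, and rose by 0.50 ± 0.15 (SE), 1.41-fold (adjusted p = 0.0071 by limma). After quantile normalization the rise was 1.14, 2.21-fold (adjusted p = 1.16e-06 by limma). Over the 21 alternative settings it lay between 0.39 and 1.14, with adjusted p from 1.2e-06 to 0.048. It was thus a change that passed the threshold in each of them.

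ETV1 and ETV5 gave values that depended on how the arrays were scaled. In deposited values ETV1 fell by 0.56 ± 0.15 (SE) from DT to DTE (adjusted p = 0.00213 by limma) and ETV5 by 0.50 ± 0.15 (SE) (adjusted p = 0.00782 by limma), and the arrays did not overlap. After quantile normalization both differences had the other sign, 0.14 for ETV1 (adjusted p = 0.204 by limma) and 0.17 for ETV5 (adjusted p = 0.125 by limma), and neither passed. With each array centred on its median they were -0.12 and -0.05 and not called. The deposited decreases of ETV1 and ETV5 were therefore close to that of the median gene, -0.41. In deposited values 54% of all genes were called lower and 4.09% higher, with 17.9% and 16.4% after quantile normalization, and 65.4% had arrays that did not overlap.

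The interaction term sets the effect of entinostat in the presence of dabrafenib and trametinib against its effect in their absence. For ETV4 it was 0.62 ± 0.21 (SE) (adjusted p = 0.016 by limma), and 1.35 after quantile normalization (adjusted p = 0.000182 by limma). ETV4 was number 15 from the highest interaction of all genes, number 7 after quantile normalization, and was called in each of the 20 alternative settings, at 0.46 to 1.35 with adjusted p from 0.00011 to 0.048. Of all genes 0.206%, or 30, were called with a positive interaction and 62.5% with a negative one, against 2.08% and 2.12% after quantile normalization, and the median gene had -0.63. For ETV1 the interaction was -0.43 ± 0.21 (SE) (adjusted p = 0.0754 by limma) and for ETV5 -0.49 ± 0.22 (SE) (adjusted p = 0.0503 by limma). After quantile normalization these were 0.36 and 0.25 and also not called. The ETV5 term passed the threshold in deposited values without DMSO replicate 1 (-0.59), DT replicate 2 (-0.60), E replicate 1 (-0.62) or DTE replicate 3 (-0.55), and the ETV1 term did without E replicate 1 (-0.53).

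Expressed as levels, an exact product of the DT and E effects would have put ETV4 at 28 in DTE, and the measured geometric mean was 43.1, or 154% of it (256% after quantile normalization). The same product gave 62.4 for ETV5 against a measured 44.3 (71%, and 119% after quantile normalization) and 82.5 for ETV1 against 61.3 (74.3%, and 128%). The order of levels across groups was DMSO, E, DTE and DT for ETV4 on both scales. For ETV5 and ETV1 the order in deposited values ended with DT above DTE, and after quantile normalization with DTE above DT. The neighbours DMSO and E overlapped in deposited values for all 3 genes, and the means ± SD (n = 3) were 264 ± 25.9 and 244 ± 44 for ETV4, 249 ± 38.5 and 249 ± 39.8 for ETV5, and 195 ± 21.5 and 178 ± 30.2 for ETV1. The neighbours DT and DTE did not overlap, with means ± SD (n = 3) of 30.6 ± 3.75 and 43.1 ± 3.05 for ETV4, 62.8 ± 7.37 and 44.4 ± 3.01 for ETV5, and 90.9 ± 7.98 and 61.5 ± 5.61 for ETV1.

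**Figure D3:**
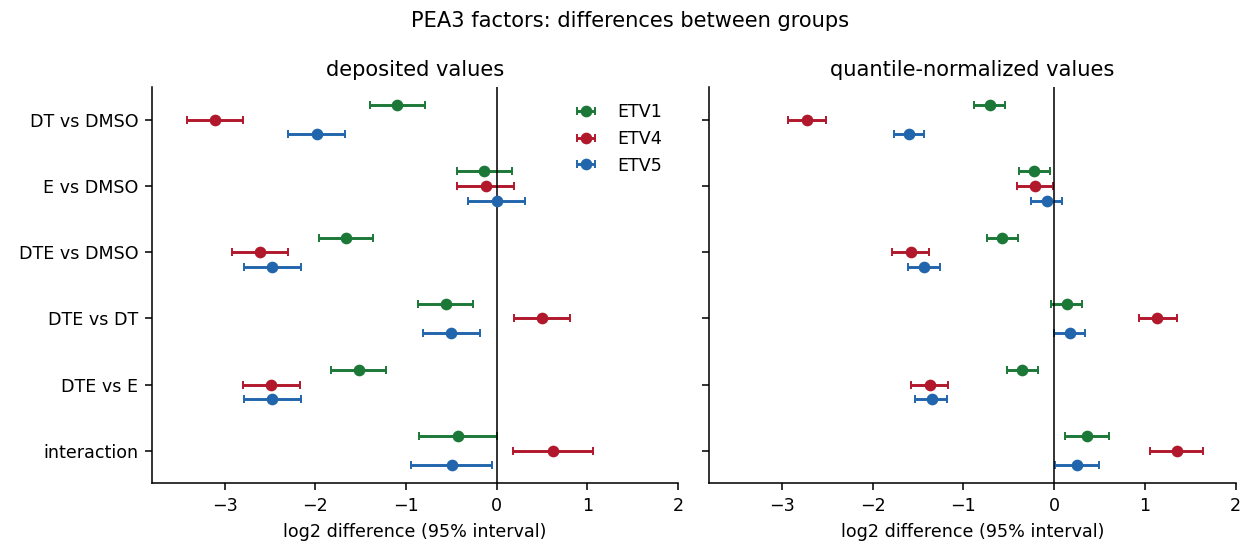
Log2 difference of ETV1, ETV4 and ETV5 in each of the 6 comparisons, with 95% intervals, in deposited values and after quantile normalization. In DTE vs DT and in the interaction ETV4 is above 0 on both scales (0.50 and 1.14, 0.62 and 1.35), while ETV1 and ETV5 change sign between scales.

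Ratios of 2 factors on the same array are free of any factor common to that array, though not of a shift that depends on intensity, and they show unequal change only. The log2 ratio of ETV4 to ETV1 averaged 0.44 ± 0.04 (SD, n = 3) on the DMSO arrays and -1.57 ± 0.08 on those of DT, and with entinostat 0.45 ± 0.21 in E and -0.51 ± 0.13 in DTE. ETV4 thus lost more than ETV1 with dabrafenib and trametinib, both without and with entinostat. The ratio of ETV5 to ETV1 was 0.35 ± 0.07, -0.54 ± 0.06, 0.48 ± 0.08 and -0.47 ± 0.04 in the same order. The ratio of ETV4 to ETV5 was 0.09 ± 0.09, -1.04 ± 0.02, -0.03 ± 0.13 and -0.04 ± 0.13 in that order, so that the DT arrays alone stood away from the other groups.

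The effect of dabrafenib and trametinib on each ratio was tested by permuting labels separately among the arrays without and with entinostat, an exact two-sided test with 400 regroupings and a smallest possible p of 0.005. It was -1.49 for ETV4 to ETV1 and -0.92 for ETV5 to ETV1, each at that smallest p (adjusted over the 6 tests, exact permutation p = 0.015). For ETV4 to ETV5 it was -0.57 (exact permutation p = 0.025, adjusted 0.038), and this call was lost without DMSO replicate 3, E replicate 2, DTE replicate 1 or DTE replicate 3, after quantile normalization (adjusted 0.05) and with 10 added to each intensity (adjusted 0.06). The values with and without entinostat were unlike for this ratio, as DT differed from DMSO by -1.13, and DTE differed from E by -0.01. The interaction of this ratio was 1.12 (1.10 after quantile normalization), that of ETV4 to ETV1 was 1.05 (1.00) and that of ETV5 to ETV1 was -0.07 (-0.11). The means of ETV4 to ETV5 in DTE and DT differed by 0.99 with no overlap, for which the exact permutation p of 0.1 is the smallest that 3 arrays against 3 allow.

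The entinostat effect on the ratios, was tested in the same way among the arrays without and with the MAPK inhibitors. It was 0.54 for ETV4 to ETV1 (exact permutation p = 0.05, adjusted 0.06) and 0.44 for ETV4 to ETV5 (exact permutation p = 0.09, adjusted 0.09), and neither passed. The former passed without E replicate 1 or 3 (adjusted 0.048 by the exact permutation test). For ETV5 to ETV1 it was 0.10 (exact permutation p = 0.015, adjusted 0.03), and the call was lost without DMSO replicate 3, E replicate 2 or DTE replicate 1 and after quantile normalization (0.08, adjusted 0.09).

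**Figure D4:**
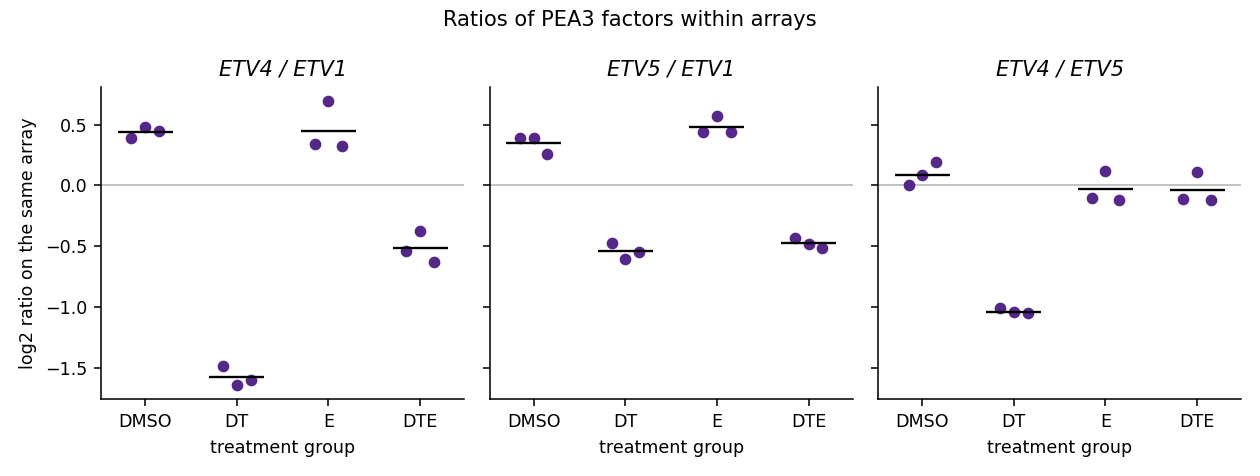
Within-array log2 ratios of ETV4 to ETV1, ETV5 to ETV1 and ETV4 to ETV5 by treatment; points are arrays and horizontal lines the group means. ETV4 to ETV5 is near 0 in DMSO, E and DTE (0.09, -0.03 and -0.04) and at -1.04 in DT, whereas ETV5 to ETV1 is at about the same value in DT and DTE (-0.54 and -0.47).

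Across the 12 arrays, log2 values of ETV4 and ETV5 correlated at a Pearson r of 0.958, those of ETV1 and ETV5 at 0.985 and those of ETV1 and ETV4 at 0.905 (0.952, 0.952 and 0.932 after quantile normalization). These are descriptions, since the arrays share the treatments and their levels. Among 7290 genes above the median gene in their brightest group, those most like ETV4 were LINC00520 (0.996), a long non-coding RNA, DTL (0.988), a substrate receptor of a CUL4 ubiquitin ligase, CMTM7 (0.987), ADCY1 (0.987), an adenylyl cyclase, and NPPC (0.986), the precursor of C-type natriuretic peptide. Those most like ETV5 were PARPBP, GINS1, MCM4, FEN1 and CHEK1, each at 0.997, of which GINS1, MCM4 and FEN1 belong to the DNA replication machinery and CHEK1 is a checkpoint kinase. Those most like ETV1 were RPF2 (0.998), a factor of ribosome assembly, LINC00622 (0.997), and NEMP1, PNPT1 and URB1 (each 0.996). The choice of scale set most of these names: after quantile normalization 2 of the 5 genes were shared for ETV4, 1 for ETV1 and 0 for ETV5, and by Spearman correlation 1, 1 and 0. By construction these genes, like the factor they resemble, were lower than DMSO in DT and in DTE, RPF2 by -1.06 and -1.56. Those most like ETV4 did not all share its rise from DT to DTE. LINC00520 differed from DMSO by -2.45 in DT and -1.95 in DTE, and ADCY1 by -2.04 and -1.81. For NPPC these values were -2.91 and -2.82, for DTL -2.03 and -2.01, and for CMTM7 -1.93 and -1.98.

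Genes known to be repressed by CIC, as the PEA3 factors are, were mostly lower with dabrafenib and trametinib. Of 21 listed genes 15 were measured, and 11 fell and 0 rose, with a median of -1.17 (10 and 0 after quantile normalization, median -0.80), against a median gene of -0.12 and 23.1% of all genes called lower (14.6% after quantile normalization). SPRY4, a Sprouty inhibitor of receptor signalling, fell by 4.04 ± 0.17 (SE), 16.5-fold, from 898 to 54.5 (adjusted p = 3.74e-14 by limma), which was number 2 among the decreases of all genes. The ERK phosphatase DUSP4 fell by 2.71, from 266 to 40.5, and the receptor GPR3 by 2.37, from 144 to 27.8. Together with ETV4 these were among the 12 largest decreases in DT, and the list was chosen with such results of these data known.

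The Sprouty family member SPRY2 fell by 1.38, the cyclin CCND1 by 1.37, the ephrin receptor EPHA2 by 1.34, the AP-1 subunit FOSL1 by 1.17, the ERK phosphatase DUSP6 by 1.12 and the small MAF protein MAFF by 0.76, all called after quantile normalization too. These decreases were of the size of that of ETV1 rather than of ETV4. DUSP5, another ERK phosphatase, was not well above background in DT and was at least 1.6-fold lower there than in DMSO. EPHA4 fell by 0.47 (adjusted p = 0.0247 by limma) but was not called after quantile normalization (-0.21) or without DMSO replicate 1 or 2 or DT replicate 2. CCND2 (-0.13), SHC3 (-0.13) and VGF (0.09) did not pass, and PTGS2 was not well above background in any group.

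From DT to DTE genes of this list were called in both directions. DUSP6 fell further by 1.63, from 186 to 60.3, and FOSL1 by 1.47, from 106 to 38.2, and both were called after quantile normalization (-0.90 and -0.84). SPRY2 (-0.83), SPRY4 (-0.69) and CCND1 (-0.57) fell in deposited values, while after quantile normalization they differed by -0.08, -0.08 and 0.16 and were not called. CCND2, the cyclin D2 gene, rose by 0.95, from 15.3 to 29.7 (adjusted p = 0.000102 by limma), and by 1.50 after quantile normalization. Its DT arrays read 10.9 to 18.4, near their background of 12.6 to 13.2, so the size of the CCND2 rise is uncertain. DUSP5 was also called higher, but was not well above background in either group, so no fold is given. Of the 15 genes 2 thus rose and 5 fell, with a median of -0.17 (7 and 2 after quantile normalization, median 0.34), where 4.09% of all genes were called higher and 54% lower (16.4% and 17.9% after quantile normalization). The other 7 with a level above background, DUSP4 (-0.25), MAFF (-0.20), SHC3 (-0.17), EPHA2 (-0.16), GPR3 (-0.13), EPHA4 (-0.10) and VGF (0.34), were not called in deposited values, and after quantile normalization DUSP4 (0.34), EPHA2 (0.52), EPHA4 (0.53) and VGF (0.93) were called higher. In the interaction 0 of the 15 were called higher and 11 lower, with 0 and 2 after quantile normalization, against 62.5% of all genes called lower (2.12% after quantile normalization). Without DTE replicate 1 in the fit 7 were called lower in deposited values.

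**Figure D5:**
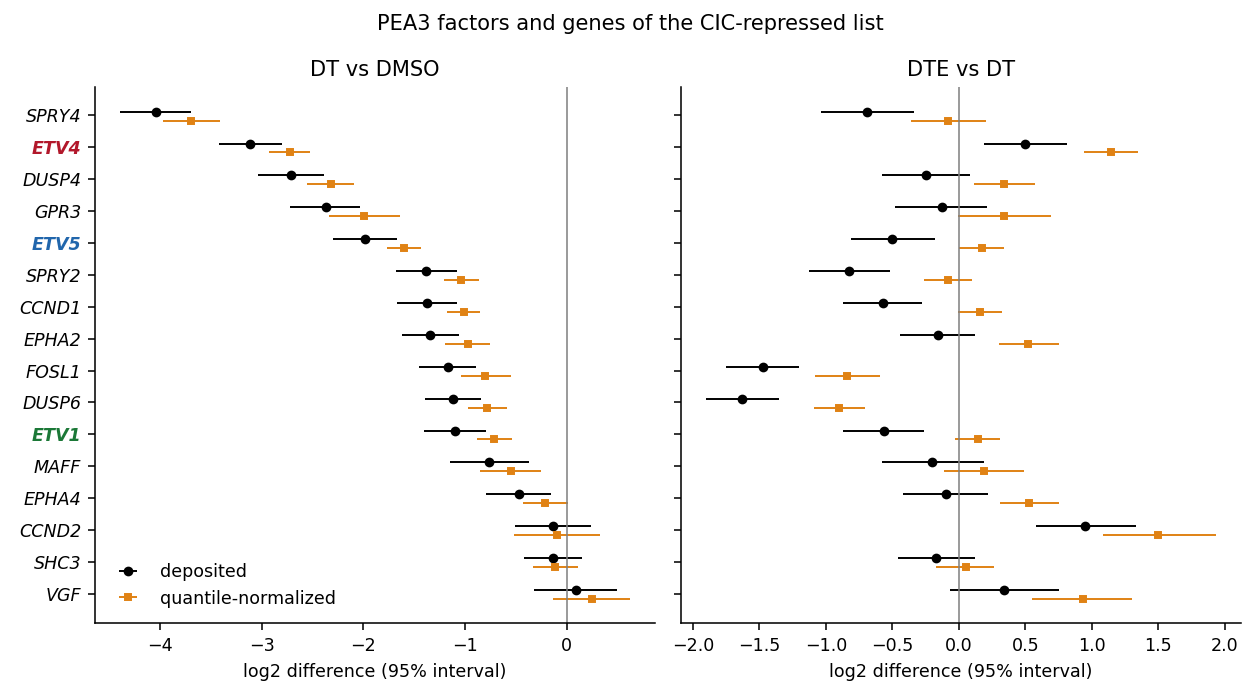
Log2 difference with 95% interval of the 3 PEA3 factors (coloured names) and 13 genes of the CIC-repressed list in DT vs DMSO and in DTE vs DT, in deposited values and after quantile normalization; DUSP5 and PTGS2, not well above background in DT and DTE, are left out. In DT vs DMSO SPRY4 (-4.04), ETV4 (-3.11) and DUSP4 (-2.71) lie furthest below 0, and in DTE vs DT ETV4 (0.50), CCND2 (0.95) and VGF (0.34, not called) lie above 0 in deposited values.

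The promoter table held 14 windows for 10 of the 15 measured genes, and 4 of these genes, DUSP6, MAFF, VGF and EPHA2, had 1 window each with a CIC octamer, on either strand. The 30 bases around a site of 3 of them are shown for comparison with the ETV1 stretch, with the octamer in capitals, which in DUSP6 is the reverse complement of TCAATGGA and in MAFF and EPHA2 is TGAATGAA. The DUSP6 site lies at chr12:89352507-89352536 (minus strand), the MAFF site at chr22:38201956-38201985 (plus strand) and the EPHA2 site at chr1:16156085-16156114 (minus strand), all in GRCh38.p14 and all before the start.
DUSP6: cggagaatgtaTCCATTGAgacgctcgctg
MAFF: ctgggtttttaTGAATGAAaggaatcctgt
EPHA2: cacgcagggcaTGAATGAAcaggagtcggt
In deposited values all 3 genes were called lower in DT, as were 23.1% of all genes. From DT to DTE DUSP6 was called lower, as were 54% of all genes, while MAFF and EPHA2 were not called. VGF, whose matches lie mostly in a TTCA repeat and are not shown, was not called in either comparison in deposited values. After quantile normalization VGF (0.93) and EPHA2 (0.52) were called higher from DT to DTE, as were 16.4% of all genes.

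Genes listed as immediate early or other transcriptional output of ERK were mostly lower in DT. Of 21 genes listed, 17 were measured, 7 of which are on the CIC list too, and 13 fell and 0 rose (11 and 1 after quantile normalization), with a median of -1.17. The 7 shared genes are all among the 13 that fell. Of the others that fell, EGR1 (-0.36) and IER2 (-0.25) were not called after quantile normalization. Not called in deposited values were FOS (37.5 in DMSO and 38.5 in DT), FOSB (48.9 and 55.4), JUNB (160 and 138) and EGR3 (20.3 and 16.3). EGR1 and IER2 are named for losing the call and the last 4 for lacking it. Over all genes 23.1% were called lower and 4.72% higher (14.6% and 15.1% after quantile normalization). MYC, the proto-oncogene transcription factor, had mean levels of 243 with vehicle, 40.8 in DT, 95 in E and 34.2 in DTE, and its interaction was called positive, 1.10 in deposited values (adjusted p = 0.000862 by limma) and 1.78 after quantile normalization. In deposited values MYC was the 1 gene of this list with such a call, and after quantile normalization there were 3, with HMGA1 (0.70) and LIF (0.73). These genes are named for that call, after their values were seen. LIF, which was among the 13 that fell, was not well above background in DT (11.9). It was at least 1.66-fold lower there than in DMSO. Its level in DTE was 11.7, near the background of 11.1 to 12.2 on those arrays, so the size of its interaction is uncertain. With entinostat alone MYC fell by 1.35. Of the 17 genes, 10 had a called negative interaction, near the 62.5% of all genes, and 2 had one after quantile normalization, where 2.12% of all genes did.

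Of 25 other ETS factors listed, 20 were measured, of which 4 were at background in all groups. In DT 4.72% of all genes were called higher and 23.1% lower (15.1% and 14.6% after quantile normalization). On this list 1 rose and 3 fell (2 and 2 after quantile normalization), with a median of -0.15. The decreases were those of EHF (-0.87), ELF4 (-0.52) and ETV3 (-0.50), of which ETV3 was not called after quantile normalization (-0.14); these 3 are named because they were called. Of the brightest members by mean, ETS1 rose by 0.43 ± 0.16 (SE) (adjusted p = 0.0423 by limma) and by 0.77 after quantile normalization. The deposited ETS1 call was lost without DMSO replicate 1 or 3, DT replicate 1 or 3, E replicate 2 or DTE replicate 2. ETV6 (-0.14), a repressor of the family, ELF1 (-0.15) and ERF (-0.10), a repressor that ERK regulates, did not pass, and after quantile normalization they differed by 0.20, 0.21 and 0.26, again without a call.

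Regulators of the PEA3 factors were measured for 6 of 11 listed genes, and in DT 1 rose and 1 fell (4 and 1 after quantile normalization), against 4.72% and 23.1% of all genes (15.1% and 14.6%). ATXN1, which binds CIC and stabilises it as a repressor, rose by 0.63, and CUL4A, a scaffold of the ubiquitin ligase that contains DET1, fell by 0.77, both on both scales; they are named because they were called. The acetyltransferases EP300 (-0.01) and CREBBP (-0.04), the CIC partner ATXN1L (-0.16) and DET1 (0.34) did not pass in deposited values. After quantile normalization EP300 (0.22), CREBBP (0.29) and DET1 (0.67) were called higher and ATXN1L (0.20) was not. CIC and COP1 are not analysed here.

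The RAS-RAF-MEK-ERK cascade itself, with 9 of 19 genes measured, had 3 that fell in DT, ARAF (-0.51), HRAS (-0.51) and MAP2K1 (-0.66), and 0 that rose (1 and 4 after quantile normalization). ARAF is named because it was called, and the count called lower is near the 23.1% of all genes. After quantile normalization 14.6% of all genes were called lower and 15.1% higher. MAP2K1, which encodes the trametinib target MEK1, was the one still called lower after quantile normalization (-0.28). Without DMSO replicate 2 in the fit 1 of the 9 was called lower. The adaptor GRB2 (-0.32) and the scaffold SHOC2 (-0.12) did not pass in deposited values, and after quantile normalization they were 0.04 and 0.27, of which SHOC2 was called. All 12 FGF ligands and receptors of the list were measured, 4 of them at background in all groups. In DT 1 was called higher and 2 lower (1 and 1 after quantile normalization), against 4.72% and 23.1% of all genes (15.1% and 14.6%). FGF1 was called higher but was not well above background in DMSO, and was at least 1.36-fold higher in DT, while FGF18 (-0.49) and the receptor FGFR4 (-0.52) fell. FGF1 and FGF18 are named because they were called. FGFR4 was not called after quantile normalization (-0.16) or without DMSO replicate 2 or DT replicate 2 or 3. The list had 0 genes called lower without DMSO replicate 2 or DT replicate 2, and 1 without DMSO replicate 1 or DT replicate 3. FGF2 (-0.36) and FGFR3 (0.21) did not pass, and FGFR1 was not well above background in DMSO or DT.

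Of 22 genes reported elsewhere as targets of PEA3 factors, 16 were measured, 4 of them at background in all groups, and in DT 4 fell and 0 rose (4 and 3 after quantile normalization), with a median of -0.09. The adhesion molecule ICAM1 fell by 1.45, from 260 to 95, the transcription factor TWIST1 by 0.75, the growth factor VEGFA by 0.64 and the receptor MET by 0.61. TWIST1 and VEGFA are named because they were called. SPP1 (osteopontin, -0.02) and VIM (vimentin, -0.30) did not pass, and after quantile normalization SPP1 was called higher (0.32) and VIM was not (0.09). In deposited values the share of this list called lower, 4 of 16, was near the 23.1% of all genes, and 4.72% of all genes were called higher. After quantile normalization 14.6% of all genes were called lower and 15.1% higher, beside 4 and 3 of the 16.

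The class I histone deacetylases, the targets of entinostat, were all measured. HDAC1 (0.51), HDAC2 (0.46) and HDAC3 (0.52) rose with entinostat alone and HDAC8 (0.21) did not pass, and 2 of the 4 were called after quantile normalization, HDAC1 (0.41) and HDAC3 (0.43). Over all genes 20.8% were called higher in this comparison (15.1% after quantile normalization). Without DMSO replicate 3 or E replicate 3 the calls of HDAC1 and HDAC2 were lost and 1 of the 4 was called, and HDAC2 was lost without E replicate 2 too. With each array centred on its median 0 were called and HDAC8 differed by -0.07.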

How the data were processed

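Total RNA of 12 samples was hybridised to Affymetrix arrays. The deposited intensities are linear, and RMA and the Transcriptome Analysis Console are named in the submitters' processing notes; versions, order and scaling are not given in the sources used here. The spike-in mix that the labels describe was not used here, and whether the deposited values had been scaled by it was not tested. Of 29398 probe sets, 14750 (50.2%) had 1 gene name in the platform table and gave 14582 genes, the brightest probe set standing for a gene with several; 14648 were not named here. Log2 intensities, with no pseudocount or filter, were fitted with limma 3.58.1 (lmFit, eBayes) in R 4.3.3, with 1 mean per group over all 12 arrays, 6 contrasts and Benjamini-Hochberg adjustment over all genes. Within-array ratios were compared by exact permutation tests. The procedure was tested on simulated data. Background was set at the 95th percentile over each array's dimmest 25% of genes; a group whose mean lay at or under it is called not well above background, and a fold against such a group is a bound.

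The members, lists and tests were chosen with earlier results of these data known. Named genes are the 3 PEA3 factors, all measured genes of the CIC-repressed list, the 4 brightest members of each other list by mean over the arrays, and the 5 genes most like each factor; genes outside this rule are said to be so where they appear. The alternatives were quantile normalization, median centring, a replicate block, a fit of the compared groups only, a trended robust variance, array weights, a filter on dim genes, the mean of probe sets, a pseudocount of 10 and leaving out each array. Promoters were taken from RefSeq.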

Additional observations from a re-analysis of the deposited data

Results flagged for a closer look

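The interaction of ETV4, the difference in the entinostat effect with and without dabrafenib and trametinib, was 0.62 on the log2 scale (adjusted p = 0.016 by limma), with ETV4 higher in DTE than in DT by 0.50 and different from DMSO by -0.12 with entinostat alone. It was 1.35 after quantile normalization, and it was called in each of the 20 alternative settings. Its cause was not tested.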

How the results depend on the processing

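The decreases of ETV1, ETV4 and ETV5 in DT vs DMSO, DTE vs DMSO and DTE vs E, the rise of ETV4 in DTE vs DT and its interaction kept direction and call under all alternatives run; fitting only the groups compared gives no interaction. The cause of the changes that follow was not tested, unless the alternative's own construction shows it. Quantile normalization gave -0.22 for ETV1 in E vs DMSO, 0.14 and 0.17 for ETV1 and ETV5 in DTE vs DT, 0.36 and 0.25 for their interactions, 0.08 for the entinostat effect on ETV5 to ETV1 and -0.57 (adjusted 0.05, exact permutation) for the DT effect on ETV4 to ETV5. It left 6261 genes called in DTE vs DMSO, 4993 in DTE vs DT, 2923 in DTE vs E and 612 in the interaction, against 9490, 8466, 11489 and 9147. Median centring gave -0.42, -0.41 and -0.29 for ETV1, ETV4 and ETV5 in E vs DMSO, all called, -0.12 and -0.05 for ETV1 and ETV5 in DTE vs DT, 0.30 and 0.24 for their interactions, and 2540 genes called in the interaction. Array weights gave 7226 genes called in E vs DMSO (3734 without), -0.25 for ETV1 there, and interactions of -0.36 for ETV1 and -0.50 for ETV5, all called. The ETV5 interaction was also called with another variance model and without dim genes (-0.49 in both), and 7204 genes were called in DTE vs E without dim genes, where fewer genes are tested. Adding 10 to each intensity gave -0.47 for the DT effect on ETV4 to ETV5, no longer called.

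Leaving out each array in turn gave -0.21 to 0.04 for ETV4 and -0.13 to 0.12 for ETV5 in E vs DMSO, -0.53 to -0.30 and -0.62 to -0.36 for the interactions of ETV1 and ETV5, 0.48 to 0.57 and 0.08 to 0.12 for the entinostat effects on ETV4 to ETV1 and ETV5 to ETV1, and -0.60 to -0.53 for the DT effect on ETV4 to ETV5. Among other genes it gave -0.26 to 0.11 for CCND2, -0.15 to 0.04 for CREBBP, -0.10 to 0.11 for EP300, -0.23 to 0.02 for SHOC2, -0.13 to 0.05 for SPP1 and -0.13 to 0.28 for VGF in DT vs DMSO, and -0.24 to 0.01 for EPHA4 and -0.32 to 0.05 for GPR3 in DTE vs DT. VGF was -0.03 in DT vs DMSO with array weights.

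The sign of other genes turned with the scale. In DT vs DMSO quantile normalization gave 0.20 for ATXN1L, 0.29 for CREBBP, 0.21 for ELF1, 0.22 for EP300, 0.26 for ERF, 0.20 for ETV6, 0.04 for GRB2, 0.27 for SHOC2, 0.32 for SPP1 and 0.09 for VIM. Median centring gave 0.04 for ATXN1L, 0.07 for CCND2, 0.16 for CREBBP, 0.05 for ELF1, 0.19 for EP300, 0.10 for ERF, 0.06 for ETV6, 0.06 for SHC3, 0.08 for SHOC2 and 0.17 for SPP1, and -0.07 for HDAC8 in E vs DMSO. In DTE vs DT quantile normalization gave 0.16 for CCND1, 0.34 for DUSP4, 0.52 for EPHA2, 0.53 for EPHA4, 0.34 for GPR3, 0.19 for MAFF and 0.05 for SHC3. Median centring gave 0.20 for DUSP4, 0.29 for EPHA2, 0.34 for EPHA4, 0.31 for GPR3, 0.25 for MAFF and 0.28 for SHC3.

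The groups share replicate numbers 1 to 3, but arrays of the same number did not deviate together: the correlation of their deviations from the group means was -0.18 to 0.22, over 0.1 in 5 of 18 pairs. With the number as a replicate block, no call of a PEA3 factor or a ratio changed (ETV4 in DTE vs DT 0.50) and no count over all genes moved by over 1.5 times, while 5 counts of list genes did, and ETS1 in DT vs DMSO (0.43) and HDAC2 in E vs DMSO (0.46) lost their calls. All values of the PEA3 factors were at least 2.0 times the background of their array.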
